A study of Mus musculus with 9 samples.

Results

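The integrin subunits described here are 10 genes, 7 alpha subunits (Itga1, Itga5, Itga6, Itga7, Itga8, Itga11 and Itgav) and 3 beta subunits (Itgb1, Itgb3 and Itgb5). They were taken from a mouse beige adipocyte differentiation series by matching their gene symbols. They are 10 of the 55359 genes in the count table, and all 10 had enough counts to be tested. A further 17 integrin subunit genes were listed for comparison. Beige adipocytes are fat cells that can burn fuel for heat and arise within white fat. Bulk RNA was sequenced from precursors of inguinal white adipose tissue, a fat depot under the skin. Non-induced cells (day 0) and cells differentiated until day 4 or day 8 gave 3 libraries each. The medium of the induced cells held the glucocorticoid dexamethasone, the phosphodiesterase inhibitor 3-isobutyl-1-methylxanthine, indomethacin, insulin, triiodothyronine (a thyroid hormone) and the PPAR gamma agonist rosiglitazone. The glucocorticoid, the phosphodiesterase inhibitor and indomethacin were withdrawn after 2 days, so the libraries of day 4 and day 8 came from cells in insulin, triiodothyronine and rosiglitazone. The labels give neither strain, age nor sex of the mice, and do not say whether the 3 libraries of a day came from separate animals or cultures, so the p-values refer to the spread among libraries, which may be technical. All days shared 1 lysis with cycloheximide and detergent, and the RNA came from the cleared supernatant.

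Integrins are cell surface receptors, each made of 1 alpha and 1 beta chain. They hold cells to the extracellular matrix and couple it to the actin cytoskeleton through adaptors such as talin and kindlin. The alpha chain largely sets the ligand. The products of Itga1 and Itga11 bind collagens, and those of Itga6 and Itga7 bind laminins of the basement membrane. Those of Itga5, Itga8 and Itgav bind fibronectin, vitronectin, nephronectin and other proteins with an RGD (arginine, glycine, aspartate) sequence. Itgb1 encodes the common partner of nearly all these alpha chains, while the products of Itgb3 and Itgb5 pair with that of Itgav among the members. Fibroblast-like precursors of fat spread on a fibrillar matrix, and a mature fat cell is surrounded by a basement membrane rich in laminin and type IV collagen.

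Promoter sequences were available for 7 of the 10 members in a RefSeq table of build GRCm38.p6, another build than that of the counts, and Itga6, Itga7 and Itgb3 are named only. The 250 bases before the annotated start are printed 5' to 3' on the strand of the gene for Itga11, Itga5, Itgb1 and Itgb5, the members with the highest levels per kilobase of exon at day 0, which all had lower levels on both later days. Capitals mark matches to the motifs searched, on either strand.
Itga11: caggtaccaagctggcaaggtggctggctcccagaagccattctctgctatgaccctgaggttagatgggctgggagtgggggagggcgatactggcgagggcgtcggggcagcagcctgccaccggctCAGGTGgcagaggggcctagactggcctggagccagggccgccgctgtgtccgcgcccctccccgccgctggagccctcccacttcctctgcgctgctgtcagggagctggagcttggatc
Itga5: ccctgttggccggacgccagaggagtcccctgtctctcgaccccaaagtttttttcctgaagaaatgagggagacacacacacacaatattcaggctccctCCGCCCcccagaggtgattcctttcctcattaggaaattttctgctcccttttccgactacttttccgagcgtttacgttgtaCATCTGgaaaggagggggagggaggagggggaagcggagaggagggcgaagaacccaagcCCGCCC
Itgb1: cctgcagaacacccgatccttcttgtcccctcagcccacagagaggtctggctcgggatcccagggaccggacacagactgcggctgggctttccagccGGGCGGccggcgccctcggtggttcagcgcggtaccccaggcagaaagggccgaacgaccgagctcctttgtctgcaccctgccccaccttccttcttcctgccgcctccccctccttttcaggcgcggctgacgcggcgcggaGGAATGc
Itgb5: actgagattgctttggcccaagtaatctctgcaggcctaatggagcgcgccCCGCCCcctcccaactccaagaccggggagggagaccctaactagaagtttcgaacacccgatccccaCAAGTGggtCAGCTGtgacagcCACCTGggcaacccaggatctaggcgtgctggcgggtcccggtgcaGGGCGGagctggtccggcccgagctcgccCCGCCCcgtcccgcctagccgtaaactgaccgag
These windows lie at chr9:62677605-62677854 on the plus strand, chr15:103366792-103367041 on the minus strand, chr8:128685404-128685653 on the plus strand and chr16:33829415-33829664 on the plus strand, each ending at the base next to the start. The motifs searched were the CArG box of serum response factor, the AP-1 motif TGANTCA, the TEAD motif GGAATG, the Sp1 motif GGGCGG, the NF-Y motif CCAAT and the E-box CANNTG. The Sp1 motif was present in 3 of the 7 member promoters (Itgb1, Itga5 and Itgb5), against 32.7% of 32851 mouse promoter windows of this length. It lay at -151 to -146 in Itgb1, at -149 to -144 and -6 to -1 in Itga5, and 3 times in Itgb5, counting from -1 at the base before the start. The E-box was present in 5 of the 7, against 66.2% of windows, and the TEAD motif in 1, Itgb1 at -7 to -2, against 12.6% of windows. None of the 7 windows held the CArG box (1.47% of windows), the AP-1 motif (6.75%) or the NF-Y motif (33.8%). No match overlapped another in the 4 printed windows, and a match of letters describes the sequence without showing that a factor binds there.

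Levels below are counts per 1e6 counts of the library (CPM), scaled between libraries by TMM. Total counts per library ran from 26387408 to 31474490. The 13 adipocyte markers summed to 104 to 128 CPM at day 0, with Lep and Ucp1 at 0 counts, to 24800 to 44800 at day 4 and to 32900 to 37200 at day 8. The 11 preadipocyte markers summed to 3320 to 3630, 1340 to 2680 and 1310 to 1830 CPM. Single preadipocyte markers went both ways. Of the 10 tested, 4 were higher and 5 lower at day 4 than at day 0 (median log2 fold change -0.31), 1 higher and 6 lower at day 8 (median -1.86), and 1 rose and 5 fell from day 4 to day 8 (median -0.75). Day 4 replicate 2 had the lowest adipocyte sum of its day, 24800 where the others had 44800 and 40500, and the highest preadipocyte sum, 2680 where the others had 1340 and 1430. On a principal component with 75.7% of the variance this library scored 13.7, its day 4 counterparts 84.6 and 69.5, and day 0 from -138 to -135. Without it, the log2 fold changes from day 0 to day 4 were -4.25 for Itga11, -3.56 for Itga8, -2.72 for Itgb5, -2.57 for Itgav, -2.18 for Itgb3, -1.92 for Itga5, -1.57 for Itga1, -1.41 for Itgb1, 3.82 for Itga7 and 5.24 for Itga6. All 10 passed in that fit too (edgeR, largest adjusted p = 0.0011, for Itga1). The summed markers of the other cell types a primary culture can hold stayed below 100 CPM in every library, at most 96.2 for 8 mural, 85.9 for 8 macrophage, 50.9 for 8 mesothelial, 36.1 for 8 skeletal muscle, 28.0 for 8 Schwann cell, 16.6 for 8 endothelial, 0.508 for 8 mammary epithelial and 0.404 for 8 lymphocyte markers. Some of these sums also moved over the days. The mural sum was 47.7 to 62.5 CPM at day 0, 79.3 to 96.2 at day 4 and 72.7 to 91.6 at day 8, with Rgs5 at 0 counts at day 8. The mesothelial sum was 16.7 to 22.3, 19.2 to 43.6 and 30.3 to 50.9 CPM on these days. The endothelial sum was 12.2 to 16.6 CPM at day 0, 2.88 to 10.7 at day 4 and 1.84 to 2.77 at day 8, with Tie1 and Erg at 0 counts at day 8. The skeletal muscle sum was 29.6 to 36.1, 1.77 to 6.1 and 7.04 to 10.6 CPM, with Myod1, Myf5 and Ckm at 0 counts on every day, and the Schwann cell sum was 7.28 to 11.6, 19.3 to 25.4 and 25.2 to 28.0 CPM. Their part in the members' changes was not tested.

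Between day 0 and day 4 the laminin-binding alpha subunits among the members, Itga6 and Itga7, rose (edgeR quasi-likelihood test, p adjusted over 14649 genes). The other 8 members fell, by 1.22 to 3.85 on the log2 scale. Itga3, which encodes another laminin-binding chain, is no member and is named after its values were seen. It was at 5.24 to 6.50 CPM at day 0, 2.68 to 4.05 at day 4 and 4.31 to 8.51 at day 8. With all libraries it did not pass on either day against day 0, so the rise of Itga6 and Itga7 does not describe all laminin-binding chains. The median log2 fold change of the 10 members was -1.70, against -0.01 over all genes tested. The members and the gene lists below were chosen with earlier results of these data known. Their medians and shares beside those of all genes therefore describe only the genes chosen. At this comparison 54.6% of all tested genes passed the test, 28.6% higher and 26.0% lower. Of all calls 52.4% were higher, and 35.3% with total counts as library sizes. The CPM ranges of day 0 and day 4 did not overlap for any of the 10, as for 65.8% of all tested genes (32.8% with day 4 higher, 33.0% lower). At day 8 against day 0, where 63.4% of genes passed (33.5% higher, 29.9% lower, and 52.9% of calls higher against 37.5% with total counts), the same 2 members were higher, 7 were lower and Itga1 did not pass. These 9 members also had ranges that did not overlap, as had 72.7% of genes (37.4% higher, 35.3% lower). The median of the 10 was -2.06 then, against 0.03 over all genes tested. The 8 tested alpha subunits that are not members had medians of 0.22 at day 4 and 0.24 at day 8. The 3 tested beta subunits that are not members had medians of -1.88 and -2.52. In bulk RNA, fewer cells of a type and less RNA per cell cannot be told apart. All 12 tested adipocyte markers were higher at day 4 and at day 8 than at day 0, while the preadipocyte markers went both ways, and the part of either in the members' changes was not tested.

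**Figure D1:**
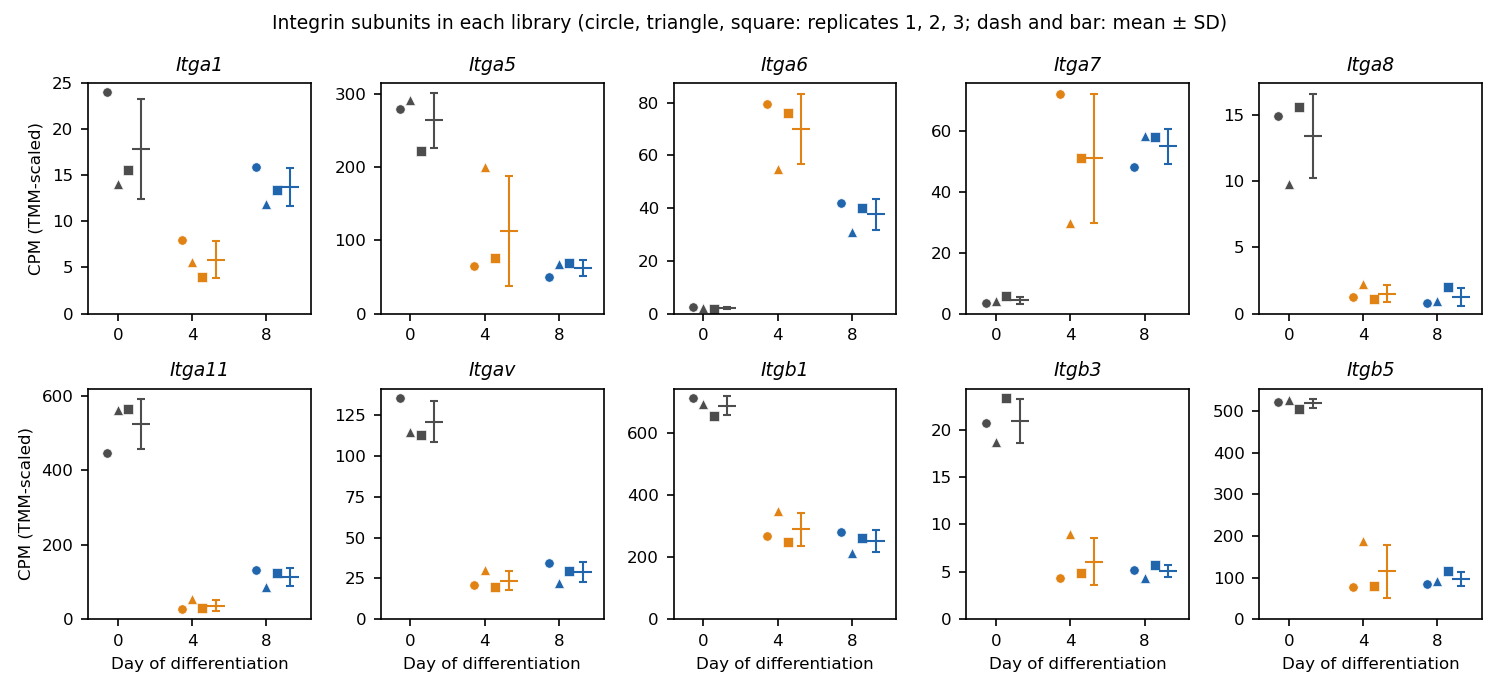
Level of each integrin subunit in CPM (vertical axis, linear, from 0) by day of differentiation (horizontal axis), with circle, triangle and square for replicates 1, 2 and 3 and a dash and bar for the mean and SD of 3 libraries. Itga6 and Itga7 sit near the axis at day 0 and high at days 4 and 8. The other 8 have their highest mean at day 0, and in Itga1 the points of day 8 overlap those of day 0. The triangle of day 4 is the highest day 4 point in Itga5, Itga8, Itga11, Itgav, Itgb1, Itgb3 and Itgb5. It is the lowest in Itga6 and Itga7.

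Among the laminin-binding subunits, Itga6 (ENSMUSG00000027111) was at 2.29, 2.14 and 1.75 CPM at day 0, from 59 to 85 counts, at 79.4, 54.7 and 76.0 CPM at day 4 and at 42.0, 30.9 and 40.0 CPM at day 8. The 3 days did not overlap, with day 4 highest and day 8 between. Itga6 was 33.9-fold higher at day 4 than at day 0 (log2 fold change 5.08, SE 0.22, adjusted p = 9.33e-08) and had fallen by 0.90 on the log2 scale from day 4 to day 8 (SE 0.18, adjusted p = 0.00738). At day 8 it was still 18.2-fold above day 0 (adjusted p = 2.63e-07). Itga7 (ENSMUSG00000025348), known as the laminin receptor of muscle, was at 3.29, 4.18 and 5.65 CPM at day 0, at 72.1, 29.6 and 51.1 at day 4 and at 48.2, 58.3 and 58.0 at day 8. All induced libraries lay above all of day 0, and the values of day 8 lay within the range of day 4. Itga7 was 11.6-fold higher at day 4 (log2 fold change 3.54, SE 0.32, adjusted p = 8.81e-06) and 12.5-fold higher at day 8 (adjusted p = 6.44e-06) than at day 0. Between the later days its log2 difference was 0.11 (SE 0.28, adjusted p = 0.811). Day 4 replicate 2 had the lowest value of both genes among the day 4 libraries. Per kilobase of annotated exon, Itga6 was 0.277 to 0.625 times Itga7 at day 0, 0.987 to 1.66 times at day 4 and 0.475 to 0.782 times at day 8. The ratio at day 4 overlapped that of neither other day.

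Of the collagen-binding subunits, Itga11 (ENSMUSG00000032243), the main collagen receptor of fibroblasts, was at 446, 561 and 564 CPM at day 0, at 26.3, 53.9 and 28.7 at day 4 and at 131, 86.6 and 124 at day 8. The days did not overlap, with the lowest values at day 4 and a partial return at day 8. The fall to day 4 was 14.4-fold (log2 fold change -3.85, SE 0.30, adjusted p = 3.05e-06), the largest drop among the members. The rise from day 4 to day 8 was 3.13-fold (log2 1.65, SE 0.27, adjusted p = 0.0032). Day 8 was still 4.6-fold below day 0 (adjusted p = 6.56e-05). Itga1 (ENSMUSG00000042284) was the other collagen-binding alpha chain among the members. It was at 24.0, 14.0 and 15.6 CPM at day 0, at 8.01, 5.55 and 4.02 at day 4 and at 16.0, 11.9 and 13.4 at day 8. Day 4 lay below both other days, whose ranges overlapped. The log2 fold changes of Itga1 were -1.61 (SE 0.28, adjusted p = 7.76e-04) to day 4, 1.23 (SE 0.28, adjusted p = 0.0129) from day 4 to day 8 and -0.38 (SE 0.27, adjusted p = 0.245) over the whole course. With total counts as library sizes, the last of these was -0.74 with an adjusted p of 0.0356. Per kilobase of exon, Itga11 was 67.3 to 145 times as abundant as Itga1 at day 0, 11.9 to 35.2 times at day 4 and 26.5 to 33.4 times at day 8. Both later days lay below day 0.

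Among the RGD-binding subunits, Itga5 (ENSMUSG00000000555), which encodes the classical fibronectin receptor chain, was at 279, 292 and 222 CPM at day 0, at 64.3, 199.6 and 75.5 at day 4 and at 50.2, 68.1 and 69.5 at day 8. The day 4 libraries were far apart, with replicate 2 near day 0 and the other 2 near day 8. The log2 fold change to day 4 was -1.22 (SE 0.37, adjusted p = 0.0157). Leaving out day 4 replicate 2 made it -1.92. Leaving out day 4 replicate 3 made it -0.995, and the call was lost (adjusted p = 0.0654). By day 8 Itga5 had fallen by 2.08 from day 0 (SE 0.38, adjusted p = 6.85e-04). The difference between day 4 and day 8, -0.86 (SE 0.36), did not pass with all libraries (adjusted p = 0.113). It passed if day 4 replicate 1 was left out (-1.14, adjusted p = 0.0288) and was -0.21 if day 4 replicate 2 was. Itgav (ENSMUSG00000027087), which encodes the alpha chain of vitronectin receptors, was at 135, 115 and 113 CPM at day 0, at 20.9, 30.1 and 19.8 at day 4 and at 34.5, 22.2 and 29.2 at day 8. Its levels were 5.11-fold lower at day 4 (log2 fold change -2.35, SE 0.21, adjusted p = 7.51e-06) and 4.22-fold lower at day 8 (adjusted p = 1.33e-05) than at day 0, and the later days overlapped. Itga8 (ENSMUSG00000026768), the nephronectin receptor chain, was at 14.9, 9.78 and 15.6 CPM at day 0, at 1.21, 2.21 and 1.06 at day 4 and at 0.763, 0.979 and 2.03 at day 8. On the later days these levels rested on 22 to 61 counts a library. Every induced library lay below every library of day 0, with log2 fold changes of -3.16 (SE 0.41, adjusted p = 9.96e-05) to day 4 and -3.41 (SE 0.41, adjusted p = 4.98e-05) to day 8.

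Among the beta subunits, Itgb1 (ENSMUSG00000025809), the shared partner chain, was at 715, 696 and 657 CPM at day 0, 269, 350.3 and 249.9 at day 4 and 282, 213 and 263 at day 8. The induced libraries all lay below day 0 and the later days overlapped. It had the highest level per kilobase of exon of the 10 members on every day. Its log2 fold change was -1.25 (SE 0.17, adjusted p = 1.46e-04) at day 4 and -1.45 (SE 0.17, adjusted p = 4.34e-05) at day 8. Itgb5 (ENSMUSG00000022817), a vitronectin receptor chain, was at 523, 528 and 505 CPM at day 0, at 76.8, 188 and 80.1 at day 4 and at 83.6, 91.8 and 116 at day 8. Day 4 replicate 2 held more than double the level of the other day 4 libraries, and no induced library reached day 0. Itgb5 was 4.51-fold lower at day 4 (log2 fold change -2.17, SE 0.32, adjusted p = 2.22e-04; -2.72 without that library) and 5.35-fold lower at day 8 (adjusted p = 8.64e-05). Itgb3 (ENSMUSG00000020689), which encodes the beta chain best known from platelets and osteoclasts, was at 20.7, 18.8 and 23.4 CPM at day 0, at 4.34, 8.96 and 4.92 at day 4 and at 5.24, 4.37 and 5.68 at day 8. Day 4 and day 8 overlapped well below day 0, and the log2 fold changes were -1.78 (SE 0.27, adjusted p = 2.61e-04) and -2.04 (SE 0.27, adjusted p = 8.49e-05). None of the 3 beta subunits passed between day 4 and day 8, with log2 differences of -0.20 for Itgb1, -0.25 for Itgb5 and -0.26 for Itgb3.

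**Figure D2:**
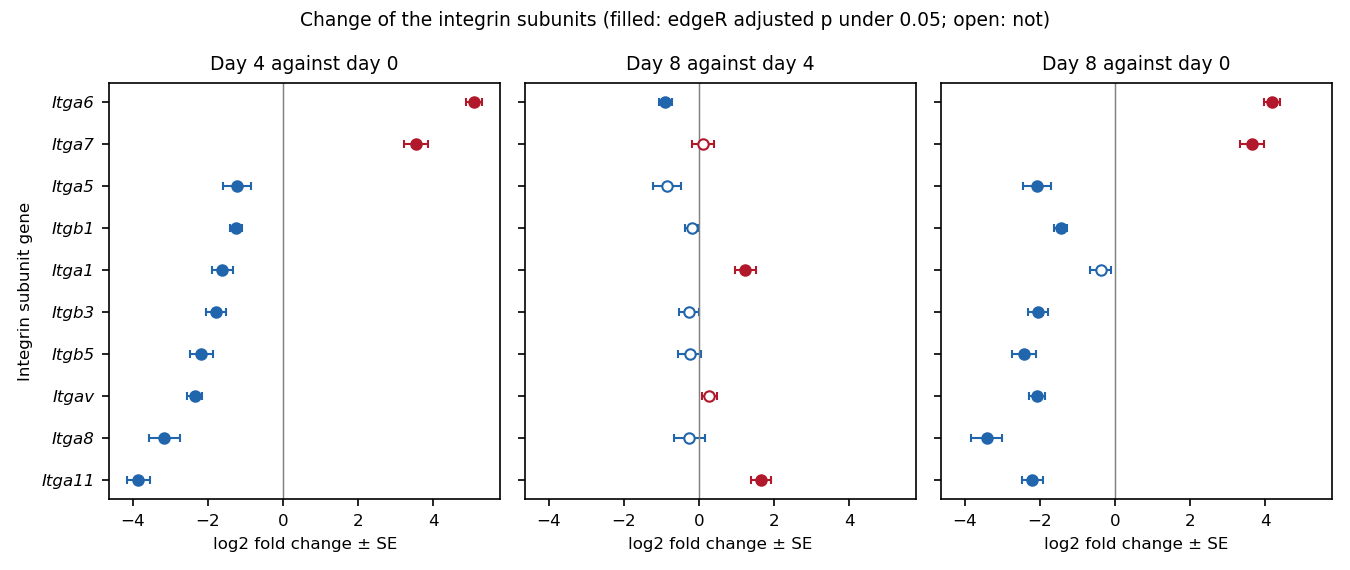
Log2 fold change with its SE (horizontal axis) of each integrin subunit (rows) in the 3 comparisons of days, from 1 edgeR fit of 9 libraries, with red for positive and blue for negative values and filled points for an adjusted p under 0.05. In day 4 against day 0 all 10 points are filled, in day 8 against day 4 only Itga6, Itga1 and Itga11 are, and in day 8 against day 0 Itga1 is the single open point.

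From day 4 to day 8, when 22.4% of all tested genes passed (11.7% higher, 10.8% lower), 2 members rose (Itga1 and Itga11), 1 fell (Itga6) and 7 did not pass. These 3 were also the members whose ranges did not overlap between the later days, as for 37.0% of genes (19.9% higher, 17.1% lower). Following the calls of both intervals, 6 members (Itga5, Itga8, Itgav, Itgb1, Itgb3 and Itgb5) fell and then had no call, as did 20.5% of all tested genes, and Itga7 rose and then had no call, as did 20.8%. Itga1 and Itga11, the collagen-binding members, fell and then rose, a course shared by 455 genes (3.11%). Itga6 rose and then fell, a course shared by 625 genes (4.27%). The change from day 4 to day 8 was also tested directly against the change from day 0 to day 4, and 31.7% of all tested genes differed between the intervals (12.7% with a higher and 19.0% with a lower later change). Of these calls 40% were higher, and 54.7% with total counts as library sizes. The later change was higher for 7 members, led by Itga11 with a difference of 5.50 on the log2 scale (SE 0.53, adjusted p = 3.30e-05; 6.25 without day 4 replicate 2), Itga8 with 2.90 and Itga1 with 2.84, and lower for Itga6 (-5.98, SE 0.31, adjusted p = 7.56e-07) and Itga7 (-3.44). For Itga5 the difference was 0.37 (SE 0.63, adjusted p = 0.694), and it passed without day 4 replicate 2 at 1.70. For Itgb5 it was 1.93 with all libraries and 2.98 without that library, and for Itgb3 1.53 and 2.26. The 7 members with a higher later change became 8 without day 4 replicate 2, 4 without day 4 replicate 1 and 3 without day 4 replicate 3, since Itgb1, Itgb3 and Itgb5 no longer passed in either of the last 2 fits, nor Itga8 in the latter. Itgb3 also did not pass without replicate 1 or 3 of day 0 or replicate 1 or 3 of day 8 (edgeR, adjusted p from 0.0536 to 0.0646).

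To compare levels between genes, CPM were divided by the length of annotated exons in kilobases, from 3553 bases in Itgb5 to 18599 in Itga1. At day 0 the order of mean level per kilobase was Itgb1 (169), Itgb5 (146), Itga11 (102), Itga5 (53.6), Itgav (11.3), Itgb3 (3.55), Itga8 (1.82), Itga1 (0.961), Itga7 (0.540) and Itga6 (0.228), and no neighbours in this order overlapped. At day 4 it was Itgb1 (71.0), Itgb5 (32.4), Itga5 (22.9), Itga6 (7.76), Itga11 (7.07), Itga7 (6.29), Itgav (2.2), Itgb3 (1.03), Itga1 (0.315) and Itga8 (0.203). Itgb5 and Itga5 overlapped then, as did Itga6, Itga11 and Itga7 with each other, and Itga1 with Itga8. At day 8 the order was Itgb1 (61.9), Itgb5 (27.3), Itga11 (22.2), Itga5 (12.7), Itga7 (6.78), Itga6 (4.17), Itgav (2.66), Itgb3 (0.863), Itga1 (0.739) and Itga8 (0.171). Itgb5 overlapped Itga11 and Itgb3 overlapped Itga1 at day 8, and the other neighbours did not overlap. Itga6 thus moved from the last of the 10 places at day 0 to the fourth at day 4 and the sixth at day 8. Levels per kilobase depend on the exon model, since a gene that uses only part of its annotated exons is divided by too long a length.

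By share of the summed level per kilobase of the 7 alpha subunits, the collagen-binding Itga11 made up 59.8% ± 5.34 (SD, n = 3) at day 0, 14.8% ± 1.52 at day 4 and 44.6% ± 6.21 at day 8, with no overlap between days. Itga6 and Itga7 together made up 0.451% ± 0.0659 at day 0, from 0.412% to 0.527%. At day 4 they made up 46.1%, 15.2% and 38.9% in the 3 libraries, and at day 8 22.2% ± 1.62. Itga5 made up 35.3%, 32.5% and 26.5% at day 0, 33.9%, 63.1% and 40.5% at day 4 and 20.1%, 31.3% and 26.3% at day 8, so its day 4 share was highest in the library that stood apart. Among the beta subunits, Itgb1 made up 53.0% ± 0.691 (SD, n = 3) at day 0, 69.4% ± 7.24 at day 4 and 68.7% ± 4.58 at day 8, and Itgb5 made up most of the rest. The ratio of Itgb1 to Itgb5 per kilobase was 1.13 to 1.19 at day 0, 1.62 to 3.05 at day 4 and 1.98 to 2.94 at day 8, higher in every induced library than in any of day 0. The summed level of the 7 alpha subunits was 160 to 182 CPM per kilobase at day 0, 37.8 to 64.1 at day 4 and 44.2 to 53.5 at day 8. The ratio of the alpha sum to the beta sum was 0.491 to 0.565 at day 0, 0.435 to 0.457 at day 4 and 0.540 to 0.561 at day 8, lowest in all 3 libraries of day 4. These shares and ratios are given without a test, since 3 against 3 libraries in an exact permutation test cannot go below p = 0.1. They cover the members only and leave out the other alpha and beta subunit genes. Among these, Itgad was at 50.7 ± 7.48 CPM at day 8 over 4510 exon bases, and the member Itga7 at 54.8 ± 5.78 CPM over 8092. With Itgad in the sum, each alpha share of day 8 would be smaller and the alpha to beta ratio larger.

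**Figure D3:**
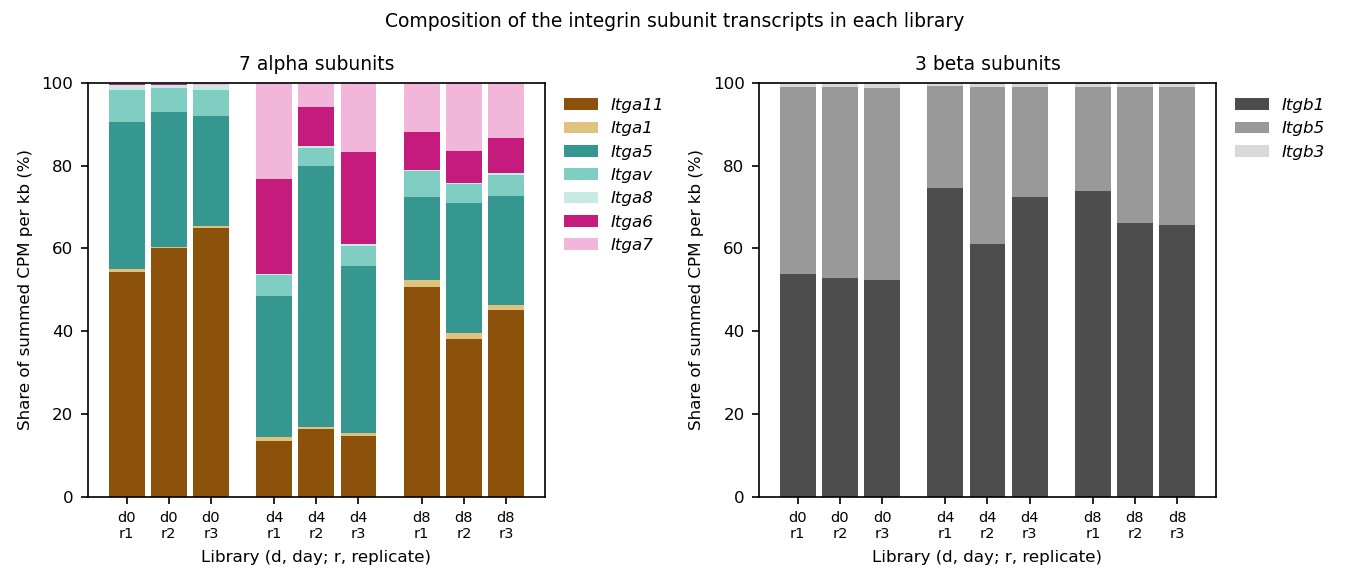
Share of each subunit in the summed CPM per kilobase (vertical axis, percent, from 0 to 100) of the 7 alpha subunits (left) and the 3 beta subunits (right) in each library (horizontal axis, d for day and r for replicate). Subunits that are not members, such as Itgad, are left out of the sums. Brown Itga11 fills 54.3% to 65.0% of each day 0 bar and 13.4% to 16.4% of each day 4 bar, the magenta and pink of Itga6 and Itga7 appear at days 4 and 8, and day 4 replicate 2 has the widest Itga5 segment, 63.1%.

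Of the 11 other alpha subunit genes, 8 were tested, and from day 0 to day 4 Itgad and Itgae rose while Itga2 and Itga9 fell. These are 25% of the 8 in each direction, near the 28.6% higher and 26.0% lower of all tested genes. The number that fell was 4 without day 4 replicate 2 or without replicate 2 or 3 of day 8. Itga9, which encodes a receptor chain for tenascin and other matrix proteins, was at 50.3 ± 5.02 CPM at day 0 (SD, n = 3) and fell to 7.82 ± 4.24 at day 4 (log2 fold change -2.68, SE 0.35, adjusted p = 1.05e-04) and 8.13 ± 2.16 at day 8. Itgae, known as the chain of an epithelial-homing lymphocyte integrin, went from 0.0943 ± 0.0836 to 3.02 ± 1.51 and 3.52 ± 0.468 CPM (log2 fold change to day 4 4.90, SE 0.61, adjusted p = 8.21e-05). Itgad, known as a leukocyte integrin chain, had 3, 0 and 0 counts at day 0, reached 14.8, 12.7 and 4.37 CPM at day 4 and 53.2, 56.6 and 42.3 CPM at day 8. The ratio of day 8 to day 0 for Itgad was 1720, with a 95% interval for counting error only of 587 to 8330. Without day 0 replicate 1, which held the 3 counts, day 8 was at least 1090-fold higher, against 3 counts over the group. From day 4 to day 8 Itgad rose by 2.25 on the log2 scale (SE 0.40, adjusted p = 0.00394). The related leukocyte genes Itgal, Itgam and Itgax, named after their values were seen, stayed at or below 0.456 CPM in every library. Itgam shares 3450 of its 5024 exon bases (68.7%) on the same strand with Gm49368, which had 0 counts. Whether reads from those shared bases entered the counts was not tested, and the Itgam level may therefore be too low. The summed macrophage markers were at 38.1 to 85.9 CPM at day 0, 49.8 to 69.8 at day 4 and 8.95 to 46.8 at day 8. Itgad shares 70 exon bases on the opposite strand with Cox6a2, a muscle and brown fat subunit of cytochrome c oxidase. Cox6a2 was at 4.42 to 4.82 CPM at day 0, 2.285 to 6.42 at day 4 and 39.6 to 83.0 at day 8. Reads of the 2 genes in that stretch cannot be told apart, since the strand setting of the counts is not given in the sources used here. Of the 6 other beta subunit genes, 3 were tested, and Itgb2 (log2 fold change -2.50, adjusted p = 0.00587) and Itgb4 (-1.51, adjusted p = 0.016) fell to day 4, both from under 5 CPM. The call of Itgb4 was lost without day 0 replicate 3 and without day 4 replicate 3.

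Of 22 RGD-containing and other non-collagen ligands, 17 were lower and 1 was higher at day 4 than at day 0, with a median log2 fold change of -1.998, and 20 were lower and 2 higher at day 8, with a median of -2.83. The lower ligands were 77.3% and 90.9% of the list, against 26.0% and 29.9% of all tested genes, and the higher ones 4.55% and 9.09%, against 28.6% and 33.5%. Fn1, fibronectin, the ligand of the Itga5 chain, fell from 5550 ± 583 CPM (SD, n = 3) at day 0 to 1246 ± 618 at day 4 (log2 fold change -2.15, SE 0.32, adjusted p = 2.42e-04) and 770 ± 140 at day 8. Vtn, vitronectin, the ligand of the Itgav chain, was the only one of the 22 to rise at day 4, from 0.253 ± 0.0527 to 1.86 ± 1.06 CPM (log2 2.84, SE 0.51, adjusted p = 8.58e-04). Fn1 and Vtn were picked after their values were seen, as direct ligands of members. The largest falls at day 4 included Ccn3 (log2 fold change -6.52, SE 0.65, adjusted p = 1.66e-05), a matricellular protein, Thbs1, thrombospondin (-4.44, SE 0.56, adjusted p = 8.93e-05), and Tnc, tenascin (-4.43, SE 0.60, adjusted p = 1.32e-04). From day 4 to day 8, 3 of the 22 rose and 5 fell (13.6% and 22.7%, against 11.7% and 10.8% of all tested genes), with 7 rising without day 4 replicate 2 and between 2 and 9 falling when single libraries were left out, the most without day 4 replicate 1. Mfge8, an RGD protein of the milk fat globule, rose from 310 ± 40.2 to 1017 ± 50.5 CPM (log2 1.71, SE 0.15, adjusted p = 2.00e-04).

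Laminin chains and collagens went both ways. Of 10 tested laminin chains, 6 were higher and 2 lower at day 4 than at day 0 (median log2 fold change 0.70), and 4 were higher and 3 lower at day 8 (median -0.24). The shares at day 4 were 60% and 20%, against 28.6% and 26.0% of all tested genes, and those at day 8 were 40% and 30%, near the 33.5% and 29.9% of all tested genes. Lamb3 rose by 3.56 on the log2 scale at day 4 (SE 0.42, adjusted p = 5.34e-05), from 0.323 ± 0.18 to 3.92 ± 0.518 CPM. Lama5 fell by 3.01 to day 8 (SE 0.46, adjusted p = 2.30e-04). The 6 higher laminin chains of day 4 became 4 without day 0 replicate 2, and as few as 4 in the alternatives that kept all libraries. The 2 lower ones of day 4 became 3 without day 4 replicate 2. They became 1 without any 1 library of day 0 or without day 4 replicate 1, and 0 without day 4 replicate 3. The 3 lower ones of day 8 became 5 without day 4 replicate 2 and 2 without day 0 replicate 1. Of 14 tested collagen chains, 6 were higher and 5 lower at day 4 (median -0.72), and 3 were higher and 9 lower at day 8 (median -1.88). The lower collagens were 35.7% and 64.3% of the 14 and the higher ones 42.9% and 21.4%. Col5a3, a minor fibrillar collagen chain, rose by 3.87 at day 4 (SE 0.26, adjusted p = 1.05e-06), while Col5a2 fell by 2.30 (SE 0.28, adjusted p = 6.72e-05) and Col1a1, the main fibrillar collagen chain, by 1.65 (SE 0.30, adjusted p = 8.64e-04). From day 4 to day 8, 3 laminin chains and 5 collagens fell, which is 30% and 35.7% of the lists, against 10.8% of all tested genes. They included Lama2 (log2 fold change -1.46, SE 0.26, adjusted p = 0.00425), a chain of muscle and fat basement membranes, and the basement membrane collagens Col4a1 (-1.22, SE 0.18, adjusted p = 0.00191) and Col4a2 (-1.51, SE 0.21, adjusted p = 0.00128). The count of falling collagens was 8 without day 4 replicate 1, and that of laminin chains was 1 without day 8 replicate 1 or 2.

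On the inner side of the membrane, 26 of 39 adaptors and kinases of adhesion complexes were lower and 5 higher at day 4 than at day 0 (median log2 fold change -0.83), and the same numbers were lower and higher at day 8 (median -1.04). On both days this was 66.7% lower and 12.8% higher, against 26.0% and 28.6% of all tested genes at day 4 and 29.9% and 33.5% at day 8. Actn1, alpha-actinin, which crosslinks actin, fell by 3.06 at day 4 (SE 0.50, adjusted p = 5.18e-04), and Tgfb1i1, a paxillin relative also called Hic-5, by 2.46 (SE 0.43, adjusted p = 7.36e-04). By day 8 the largest falls also included Nedd9, a docking protein of focal adhesions (-3.14, SE 0.26, adjusted p = 4.62e-06), and Tns3, a tensin (-3.02, SE 0.37, adjusted p = 5.50e-05). Of 15 tested activators and inhibitors of integrins, 9 were lower and 2 higher at day 4 (median -0.81), and 8 were lower and 2 higher at day 8 (median -0.62), that is 60% and 53.3% lower and 13.3% higher on both days. The 2 higher genes of day 4 became 0 without day 0 replicate 1 or day 4 replicate 3 and 1 without day 0 replicate 2 or 3, and those of day 8 became 1 without day 0 replicate 1 or 3. Tln2, a talin, fell by 1.86 at day 4 (SE 0.22, adjusted p = 5.96e-05) and by 2.32 at day 8 (SE 0.23, adjusted p = 1.24e-05). Fermt2, the kindlin of mesenchymal cells, rose by 1.30 between day 4 and day 8 (SE 0.15, adjusted p = 5.98e-04), from 60.7 ± 8.07 to 149 ± 24.5 CPM, and Kank1, a talin-binding protein, fell by 1.14 (SE 0.19, adjusted p = 0.00308). In that interval 1 of the 39 adaptors rose and 6 fell (2.56% and 15.4%, the latter near the 10.8% lower of all tested genes), and between 2 and 11 fell when single libraries were left out, the fewest without day 8 replicate 1 and the most without day 4 replicate 1.

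Among 12 membrane proteins that associate with integrins, 5 were higher and 7 lower at day 4 than at day 0 (median log2 fold change -0.47), and 5 were higher and 4 lower at day 8 (median 0.24). The shares at day 4 were 41.7% higher and 58.3% lower, against 28.6% and 26.0% of all tested genes, and at day 8 41.7% and 33.3%, near 33.5% and 29.9%. Cd36, a thrombospondin receptor and fatty acid transporter that fat cells also express in quantity, was at 0.847 ± 0.617 CPM at day 0 and rose to 1589 ± 609 at day 4 (log2 10.88, SE 0.64, adjusted p = 4.87e-07). Cav1, caveolin, which coats the caveolae of fat cells, rose by 4.01 (SE 0.25, adjusted p = 7.21e-07). Plaur, the urokinase receptor, fell by 2.87 (SE 0.45, adjusted p = 3.93e-04) and Cd9, a tetraspanin, by 1.54 (SE 0.35, adjusted p = 0.00366). At day 8 Bsg, basigin, a chaperone of lactate transporters, was 10.6-fold above day 0 (adjusted p = 1.56e-05). Cd82, another tetraspanin, rose by 1.05 from day 4 to day 8 (SE 0.18, adjusted p = 0.00337).

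**Figure D4:**
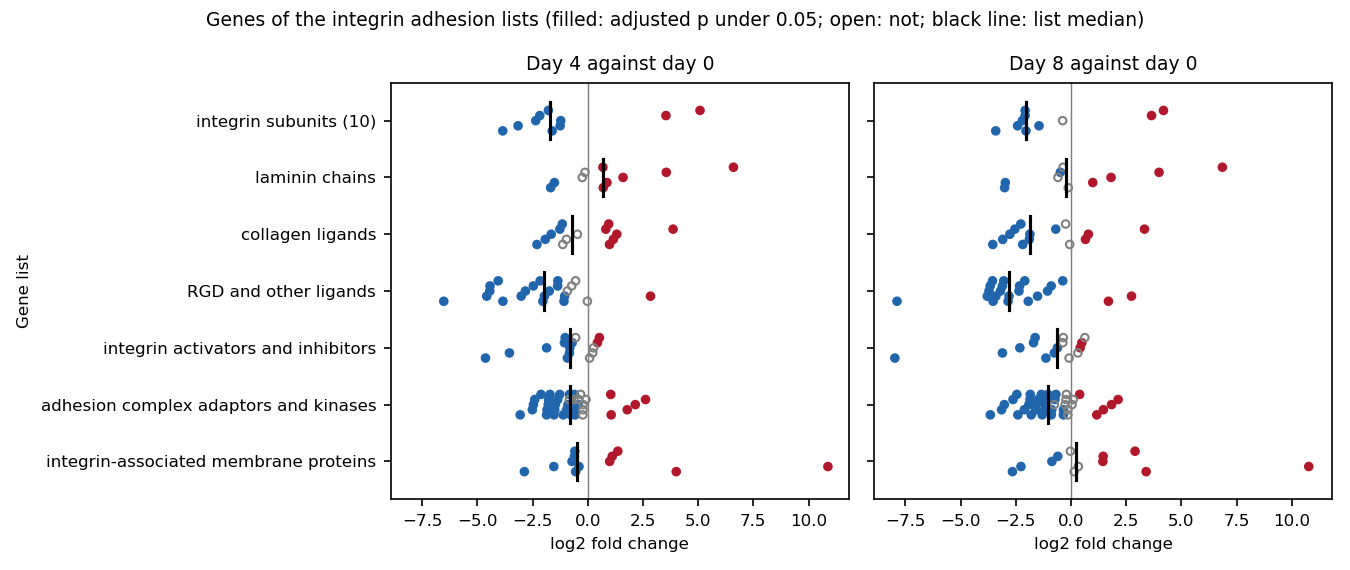
Log2 fold change (horizontal axis) of every tested gene in the integrin subunits and 6 lists of ligands and partners (rows), for day 4 and day 8 against day 0, with filled points for an adjusted p under 0.05 (red higher, blue lower), open points for the rest and a black line at the list median. The ligand row has its median furthest left, at -1.998 and -2.83, and the laminin row has its median at 0.70 and -0.24.

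Over the 9 libraries, the gene outside the integrin lists with the pattern most like Itga6 was Sptlc3 (Pearson r of log2 CPM 0.998), followed by Apmap (0.998), and for Itga7 it was Sema4a (0.995). For Itga11 the nearest genes were Aplp1 (0.992) and Amotl1 (0.991), for Itgb1 Adamts6 (0.999), for Itgb3 Sfrp1 (0.997), for Itgb5 Exo5 (0.998), for Itgav Parp8 (0.996), for Itga5 Cpt1c (0.994), for Itga8 Gstcd (0.99) and for Itga1 Grb14 (0.974). The 9 libraries share 3 days and the same scaling, so these values describe likeness across days and are given without a p.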

How the data were processed

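RNA was sequenced from 9 libraries, 3 a day, with groups and replicate numbers taken from the labels. The authors deposited raw counts of reads per Ensembl gene, without normalization. Per the submitters' processing notes, HISAT2, featureCounts and build GRCm39 were used. Versions, strand setting and annotation release are not given in the sources used here. Per the labels' protocols, the library kit kept strand and depleted ribosomal RNA.

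The main tool was edgeR 4.0.16, run in R 4.3.3 and built on limma 3.58.1. DESeq2 1.42.0 served as an alternative. Of 55359 genes, 30671 had no count, and filterByExpr (minimum count 10, minimum total 15) kept 14649. All 9 libraries entered 1 quasi-likelihood fit with TMM scaling and no covariates (6 residual degrees of freedom, biological coefficient of variation 22.7%). F-tests were two-sided, adjusted by Benjamini-Hochberg over all genes tested, with a threshold of 0.05. The SE is the absolute log2 fold change over the root of F. CPM use TMM-scaled library sizes, and 3 counts correspond to 0.0809 to 0.125 CPM. Exon lengths and overlaps came from GENCODE M21, of another build, which held 94.1% of the IDs, all members among them. No coordinates were taken from it. No pair of libraries of a day was as close as sampling noise (chi-square per degree of freedom 16.6 to 240). The test was run on simulated counts in which few genes changed, evenly up and down, and the outcome is not reported here. Such counts cannot check the scaling where a large share of genes changes.

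The 10 members and the 19 gene lists were chosen with earlier results of these data known. All members are named, and of every other list up to 4 genes per comparison with the largest change among those past the threshold, with the exceptions stated. Some genes that this rule takes are not reported here. The most alike genes are the nearest by Pearson correlation. Same-numbered libraries correlated from -0.126 to 0.273 in their deviations from the day means, and differently numbered ones from -0.224 to 0.188. Between day 0 and day 8 all same-numbered pairs (0.0859 to 0.273) lay above the others (-0.18 to 0.0366). The main fit did not pair libraries by number, and a fit with a replicate block was run beside it. The alternatives were RLE size factors, total counts as library sizes, DESeq2, no filter, a replicate block, fits of only the 2 days compared, each library left out, and shares without length. Coordinates of the promoters are those of RefSeq GRCm38.p6.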

Additional observations from a re-analysis of the deposited data

How the results depend on the processing

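Against day 0, the numbers of members that rose and fell stayed within 1.5 times of those reported in every alternative. The exceptions among comparisons were these. From day 4 to day 8, 2 members fell without a filter on low counts, and 1 to 2 when single libraries were left out, the additional one being Itga5. Genes called in that interval numbered 3285, 1901 with only the 2 days compared, and 1894 to 4185 with single libraries left out. In the test of the later against the earlier interval, the 7 members with a higher later change became 3 to 8, and genes called went from 4649 to between 2863 and 6293. Without day 4 replicate 2 the non-significant changes from day 4 to day 8 turned sign for Itga7, Itga8, Itgb3 and Itgb5, and Itga8 did so without day 8 replicate 1 (0.00898). With single libraries left out they ranged from -0.22 to 0.44 for Itga7, -0.78 to 0.10 for Itga8 (without day 4 replicate 2 0.0988), -0.45 to 0.0882 for Itgb3 and -0.47 to 0.25 for Itgb5. The interval difference of Itga5 ranged from -0.20 to 1.70 and turned sign without day 4 replicate 1 or 3 (-0.0827). Without division by length, Itga6 plus Itga7 made up 0.68% of the alpha sum at day 0 and 29.7% at day 8. Total counts as library sizes moved the median of all genes from -0.012 to -0.336 (day 4) and from 0.028 to -0.332 (day 8). There, no member that passed the test changed direction. With a replicate block, 8070, 9368, 3105 and 4606 genes were called for day 4 against day 0, day 8 against day 0, day 8 against day 4 and the difference of intervals, and no call of a member changed. Depth limits Itga8 on the later days and Itga6 at day 0. The cause of these changes was not tested.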
